A study of Mus musculus with 13 samples.

Results

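The enzymes that build triglyceride from glycerol 3-phosphate were examined in parametrial white adipose tissue (pmWAT) of female mice. The 10 genes were Gpam, Gpat3, Gpat4, Agpat1, Agpat2, Agpat3, Lpin1, Lpin2, Dgat1 and Dgat2, chosen by name from 33618 gene identifiers in the count table, and all 10 were among the 16753 genes that were tested. RNA-Seq libraries of whole pmWAT came from 7 mice labelled fl/fl and 6 labelled iADKO, 1 library per mouse. Every mouse carried homozygous floxed Lmna, the gene of the nuclear lamins A and C. The iADKO mice carried in addition 1 Adipoq-CreERT2 transgene, in which the adiponectin promoter drives a tamoxifen-activated Cre in adipocytes. The fl/fl mice had no Cre. Both genotypes received tamoxifen (50 mg/kg, 5 days) at 12 to 14 weeks of age, and tissue was collected 2 weeks later. A Cre-positive group without floxed Lmna was not part of the comparison, so that Cre and the loss of Lmna cannot be told apart.

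Triglyceride is made in adipocytes by 4 sequential steps. Glycerol 3-phosphate acyltransferases add the first fatty acid and 1-acylglycerol 3-phosphate acyltransferases (AGPATs) the next, which gives phosphatidic acid. Lipins remove the phosphate to give diacylglycerol, and diacylglycerol acyltransferases (DGATs) add the last fatty acid. Each step is served by several enzymes. Loss of AGPAT2 in people causes congenital generalized lipodystrophy, and mutations of LMNA cause familial partial lipodystrophy.

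In the libraries labelled iADKO, mRNA of 9 of the 10 enzymes was lower than in fl/fl and that of 1, Lpin2, was higher. The largest decreases were those of Agpat2 and Dgat2, whose mRNA fell to 0.403 and 0.404 of the fl/fl level. For those genes and for Lpin2 the DNA before the start of the canonical transcript is printed to show the regions of the members that moved most in each direction. Each line gives the 250 bases before the start of the canonical transcript, read 5′ to 3′ on the strand of the gene (GRCm39, GENCODE vM39), and capitals mark a match to any of 5 motifs searched on both strands.
Dgat2, minus strand, chr7:98831962-98832211: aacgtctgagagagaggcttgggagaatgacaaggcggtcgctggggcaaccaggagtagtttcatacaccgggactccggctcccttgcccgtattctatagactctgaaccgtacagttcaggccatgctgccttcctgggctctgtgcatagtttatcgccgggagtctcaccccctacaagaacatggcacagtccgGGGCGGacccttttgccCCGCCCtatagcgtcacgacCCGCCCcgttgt
Agpat2, minus strand, chr2:26494638-26494887: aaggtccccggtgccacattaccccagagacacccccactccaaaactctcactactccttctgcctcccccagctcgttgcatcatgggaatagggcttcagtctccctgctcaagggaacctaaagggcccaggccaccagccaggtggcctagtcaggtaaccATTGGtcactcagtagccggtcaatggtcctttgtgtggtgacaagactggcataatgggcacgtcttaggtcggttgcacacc
Lpin2, plus strand, chr17:71490285-71490534: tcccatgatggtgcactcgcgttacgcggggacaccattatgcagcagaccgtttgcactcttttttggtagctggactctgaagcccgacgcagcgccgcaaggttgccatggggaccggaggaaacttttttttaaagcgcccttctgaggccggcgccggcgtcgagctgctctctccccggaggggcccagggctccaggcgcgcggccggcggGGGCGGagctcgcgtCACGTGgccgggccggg
The capitals in Dgat2 are 3 GC boxes (GGGCGG), the capitals in Agpat2 are 1 CCAAT box (CCAAT), and those in Lpin2 are 1 GC box and 1 E-box (CACGTG). The GC box was found before 6 of the 10 genes and before 47.48% of 14133 tested protein-coding genes. The CCAAT box was found before 3 of the 10, Agpat1, Agpat2 and Agpat3, and before 35.55% of all. The E-box was found before 2, Agpat3 and Lpin2, and before 7.49% of all, and the half-site of nuclear receptors (AGGTCA) before 2, Gpam and Agpat3, and before 11.6% of all. The sterol regulatory element (TCACNCCAC) was found before none of the 10 and before 1.14% of all. These matches describe the letters of the window only. Other annotated transcripts can start elsewhere: the Lpin2 window lies within the annotated gene, as does the end of the Dgat2 window.

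Between 18854223 and 19776491 counts were assigned to genes per mouse, and the 10 enzymes had between 8025 (Lpin2) and 453934 (Dgat2) counts over all 13 mice. Levels are given as CPM, counts scaled to the size of the library, after TMM scaling, a correction for differences in RNA composition, whose factors were 0.892 to 1.02 in fl/fl and 1.05 to 1.10 in iADKO. Lmna mRNA did not separate the genotypes. The fl/fl mean of Lmna was 84.7 ± 7.51 CPM (SD, 7 mice) and the iADKO mean was 96.7 ± 11.5 CPM (SD, 6 mice). The log2 difference of 0.19 had an edgeR adjusted p of 0.0785. The value counts the whole gene, including the exons outside the loxP sites, in all cells of the tissue, so that it does not check the deletion and the direction of every result rests on the labels. All 8 adipocyte markers (Adipoq, Plin1, Plin4, Cidec, Fabp4, Cfd, Pparg and Cebpa) were well expressed in every mouse, with a summed level of 17340 to 26373 CPM in fl/fl and 11041 to 18787 CPM in iADKO.

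Mice fl/fl 5 and iADKO 6 stood apart within their genotypes. Fl/fl 5 had the lowest fl/fl level of 8 of the 10 enzymes, all but Gpat3 and Lpin2, and the highest fl/fl level of Lpin2. iADKO 6 had the highest iADKO level of 8, all but Lpin1 and Lpin2, and the lowest iADKO level of Lpin2. The summed level of 8 macrophage markers was 5563 CPM in fl/fl 5, against 2127 to 3754 CPM in the other fl/fl mice, and 3292 CPM in iADKO 6, against 4805 to 5703 CPM in the other iADKO mice. The summed adipocyte markers were lowest among fl/fl in fl/fl 5, at 17340 CPM, and highest among iADKO in iADKO 6, at 18787 CPM. Each of these mice was therefore shifted toward the other genotype. Results are given with both included, and the counts of called genes also without them, an alternative chosen after their values were seen.

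The 10 enzymes were compared between genotypes to ask which steps of the pathway differed. Of the 10, 9 were lower and 1 was higher at an adjusted p under 0.05, against 16.3% of all tested genes called lower and 14.1% called higher. Their median log2 fold change was -0.88, beside a median of 0.03 over all tested genes. The summed level of the 10 was 3820 to 7110 CPM in fl/fl and 2574 to 3516 CPM in iADKO. For 4 of the 10 (Gpam, Gpat3, Lpin1 and Dgat2) every iADKO mouse was below every fl/fl mouse, as for 3.93% of all tested genes. Every iADKO mouse was above every fl/fl mouse for none of the 10 and for 2.71% of all tested genes. Without fl/fl 5 alone, the mouse on which the overlaps rested, every iADKO mouse was below for 9 of the 10 and above for 1, as for 10.1% and 6.58% of all tested genes. Without both fl/fl 5 and iADKO 6 the calls were again 9 lower and 1 higher, while 23.3% of all tested genes were called lower and 19.6% higher. In bulk tissue, fewer adipocytes and less mRNA per adipocyte cannot be told apart.

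**Figure D1:**
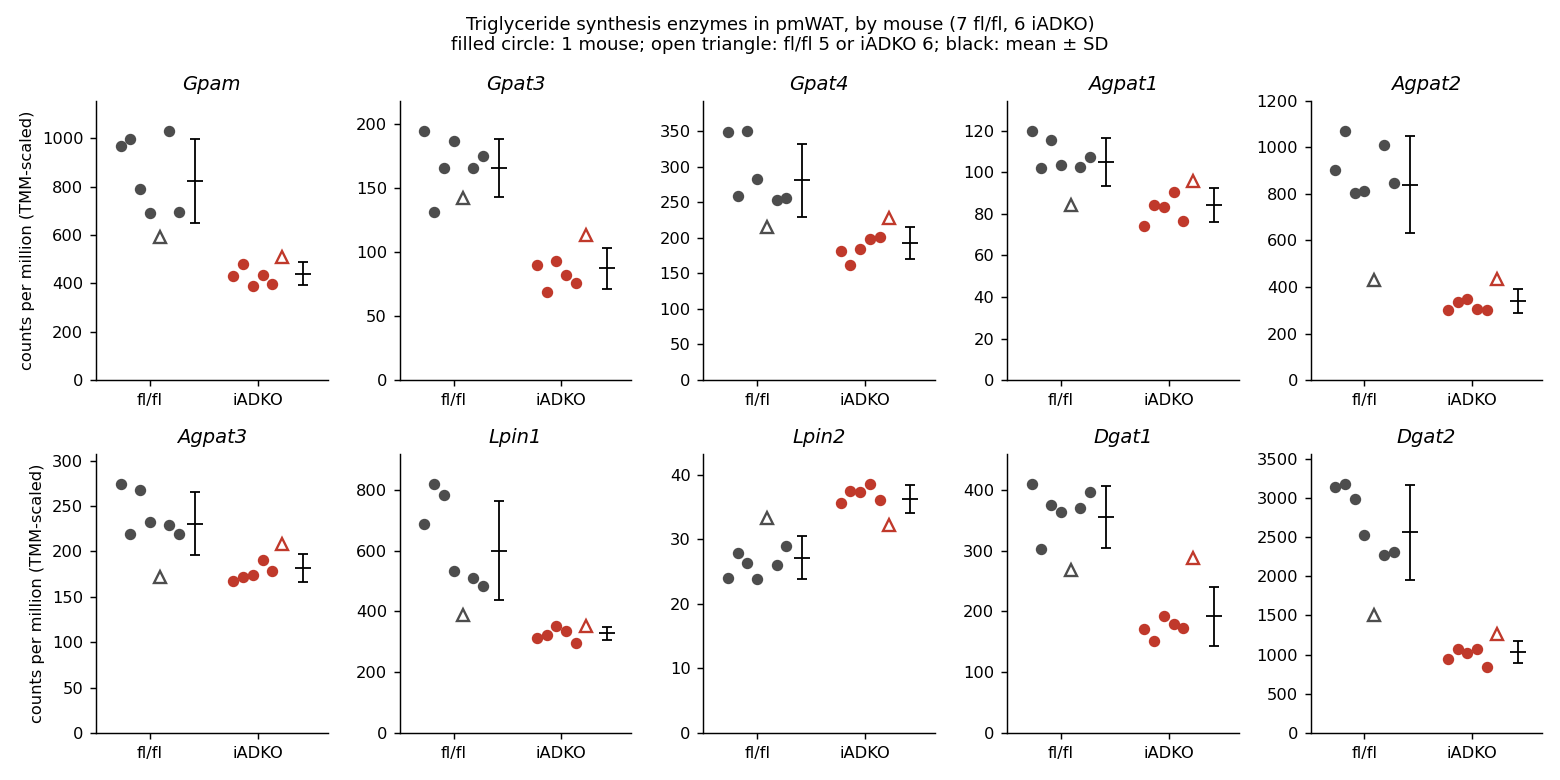
Level of each enzyme in every mouse, in CPM on a linear axis that starts at 0, for 7 fl/fl (grey) and 6 iADKO (red) mice, with the mean ± SD beside the points and open triangles for fl/fl 5 and iADKO 6. The iADKO mice lie below fl/fl for 9 enzymes and above for Lpin2, and where the groups overlap the overlap involves fl/fl 5.

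The animal numbers in the labels bear on these calls. The mice fall into series of nearby numbers, of which only 2 hold both genotypes. Among numbers 747 to 750 (3 fl/fl and 1 iADKO) the median log2 difference of the 10 enzymes was -1.10, and among 722 to 727 (2 fl/fl and 2 iADKO, with fl/fl 5 and iADKO 6 among them) it was -0.43. In the latter series Agpat1 and Agpat3 differed by -0.0022 and -0.0061 on the log2 scale. With the series as a block in edgeR, no enzyme passed the threshold (adjusted p 0.0597 to 0.341), and 0.0836% of all tested genes were called lower and 0.239% higher. The log2 fold changes kept their sign. They were -0.96 for Gpat3, -0.53 for Gpat4 and 0.41 for Lpin2, close to the values without the block given below, and -1.10 for Dgat2, -1.04 for Agpat2, -0.77 for Dgat1, -0.76 for Lpin1, -0.65 for Gpam, -0.25 for Agpat3 and -0.18 for Agpat1, all smaller in size. With mouse 765 joined to numbers 747 to 750, 7 enzymes were lower and Lpin2 was higher, beside 7.17% and 4.68% of all tested genes, and Agpat1 and Agpat3 were no longer called.

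At the first acylation, all 3 glycerol 3-phosphate acyltransferases fell. Gpam encodes the enzyme of the outer mitochondrial membrane, and Gpat3 and Gpat4 encode enzymes of the endoplasmic reticulum. Gpam (ENSMUSG00000024978, chr19:55055700-55115784, minus strand, canonical transcript of 21 exons) had a lowest, median and highest level of 591, 790 and 1031 CPM in fl/fl and of 390, 432 and 508 CPM in iADKO. Every iADKO mouse was below the lowest fl/fl mouse, and the log2 fold change was -0.90 ± 0.132 (SE) with an edgeR adjusted p of 0.000503. Gpat3 (ENSMUSG00000029314, chr5:100993579-101046968, plus strand, 12 exons) had 131, 166 and 195 CPM in fl/fl and 68.6, 86.0 and 113 CPM in iADKO. The groups did not overlap here either, and the log2 fold change was -0.93 ± 0.118 (SE, adjusted p 0.000266). Gpat4 (ENSMUSG00000031545, chr8:23661281-23699042, minus strand, 13 exons) had 215, 259 and 350 CPM in fl/fl and 162, 191 and 228 CPM in iADKO. Its decrease was smaller, at -0.55 ± 0.114 on the log2 scale (SE, adjusted p 0.00346), and iADKO 6 lay above fl/fl 5.

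At the second acylation, all 3 AGPATs measured as members fell, but by unequal amounts. Agpat2 (ENSMUSG00000026922, chr2:26483061-26494637, minus strand, 6 exons) had a lowest, median and highest level of 428, 847 and 1072 CPM in fl/fl and of 301, 322 and 436 CPM in iADKO. Of the fl/fl mice, 6 were at or above 806 CPM, and the groups overlapped only through fl/fl 5 at 428 CPM and iADKO 6 at 436 CPM. The log2 fold change of Agpat2 was -1.31 ± 0.173 (SE, adjusted p 0.000311), which ranked 111 from the lowest of all tested genes. Agpat1 (ENSMUSG00000034254, chr17:34823161-34832423, plus strand, 7 exons), which catalyzes the same reaction in many tissues, had 84.1, 104 and 120 CPM in fl/fl and 74.1, 83.9 and 95.9 CPM in iADKO. Its log2 fold change was -0.32 ± 0.0811 (SE, adjusted p 0.00975). Agpat3 (ENSMUSG00000001211, chr10:78105003-78208987, minus strand, 10 exons) had 171, 229 and 275 CPM in fl/fl and 167, 176 and 208 CPM in iADKO, with a log2 fold change of -0.34 ± 0.0955 (SE, adjusted p 0.0152). For both of these genes 1 fl/fl mouse, fl/fl 5, lay within the iADKO range.

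The lipins moved in opposite directions. Lpin1 encodes the main lipin of adipose tissue, an enzyme that is also known as a transcriptional coactivator. Lpin1 (ENSMUSG00000020593, chr12:16584818-16703913, minus strand, 21 exons) had a lowest, median and highest level of 387, 532 and 821 CPM in fl/fl and of 297, 328 and 353 CPM in iADKO. The iADKO mice lay in a narrow range below all fl/fl mice, and the log2 fold change was -0.87 ± 0.156 (SE, adjusted p 0.0015). Lpin2, which encodes a lipin abundant in liver and also present in macrophages, was the only member that rose. Lpin2 (ENSMUSG00000024052, chr17:71489555-71556909, plus strand, 19 exons) had 23.8, 26.3 and 33.4 CPM in fl/fl and 32.3, 36.7 and 38.7 CPM in iADKO. The groups overlapped only between fl/fl 5 at 33.4 CPM and iADKO 6 at 32.3 CPM, and the log2 fold change was 0.42 ± 0.0755 (SE, adjusted p 0.00159). Of 8 macrophage markers, 6 were higher in iADKO, beside 14.1% of all tested genes. The part of macrophages in the rise of Lpin2 was not tested.

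At the last acylation, both DGATs fell. DGAT1 and DGAT2 catalyze the same reaction but belong to unrelated protein families. Dgat1 (ENSMUSG00000022555, chr15:76385083-76396476, minus strand, 17 exons) had a lowest, median and highest level of 268, 370 and 411 CPM in fl/fl and of 152, 176 and 288 CPM in iADKO. Of the iADKO mice, 5 were at or below 192 CPM, and iADKO 6 lay above fl/fl 5. Its log2 fold change was -0.89 ± 0.143 (SE, adjusted p 0.000811). Dgat2 (ENSMUSG00000030747, chr7:98802491-98831991, minus strand, 8 exons), the most abundant of the 10, had 1500, 2523 and 3181 CPM in fl/fl and 838, 1045 and 1257 CPM in iADKO. No iADKO mouse reached the lowest fl/fl mouse, and the log2 fold change was -1.31 ± 0.162 (SE, adjusted p 0.000256).

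**Figure D2:**
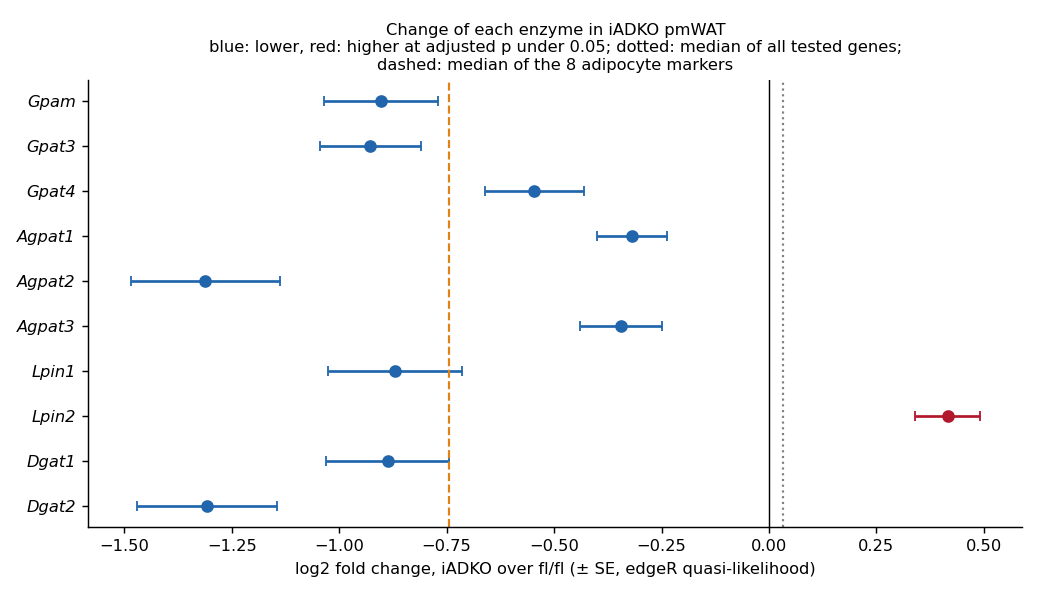
Log2 fold change of each enzyme, iADKO over fl/fl, with the SE of the edgeR fit as bars, and lines for 0, for the median of all tested genes (dotted, 0.03) and for the median of the 8 adipocyte markers (dashed, -0.75). Agpat2 and Dgat2 lie farthest to the left at -1.31, and Lpin2 is the only one to the right of 0, at 0.42.

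Some of these genes share exon sequence with a gene on the opposite strand. The libraries were strand-specific, but whether the counting used the strand is not given in the sources used here, so that reads in the shared stretches are of uncertain origin. The largest shared stretch was 2486 bases between Dgat1 and Hsf1, which encodes the heat shock transcription factor. Hsf1 was at 30.9 CPM in fl/fl and 32.2 CPM in iADKO, a log2 fold change of 0.06 (adjusted p 0.530), while Dgat1 fell. Agpat2 shares 1088 bases with Egfl7, which was at 57.1 CPM in fl/fl and 49.2 CPM in iADKO with a log2 fold change of -0.21 (adjusted p 0.0448). Gpat3 shares 1054 bases with the noncoding gene 4930458D05Rik, which fell from 13.4 to 7.31 CPM (log2 fold change -0.88, adjusted p 0.00163). Agpat3 shares 689 bases with Gm40709 (0.127 CPM in fl/fl and 0.0802 CPM in iADKO) and 419 with Gm47992 (0.0852 and 0.199 CPM). Both were too low to be tested. Lpin1 shares 531 bases with Ntsr2, a neurotensin receptor gene, which fell from 12.2 to 3.44 CPM (log2 fold change -1.83, adjusted p 0.000151). The levels of all these partners were well below those of the enzymes. On the same strand, Agpat3 shares 314 bases with Gm56820, which is not in the count table, and Gpat3 shares 259 bases with Gm42987. The strand of a read cannot assign it in those stretches. No annotated exon of another gene overlapped an exon of Lpin2 or Dgat2.

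Levels of different genes were compared as CPM per kilobase of annotated exon, within each mouse. On this scale the order of the means was the same in both genotypes: Dgat2, Agpat2, Dgat1, Gpam, Lpin1, Gpat3, Agpat1, Gpat4, Agpat3 and Lpin2. Dgat2 was at 424 ± 99.7 CPM per kb in the 7 fl/fl mice and at 171 ± 23.3 CPM per kb in the 6 iADKO mice (mean ± SD). Agpat2 was at 187 ± 46.1 and 75.3 ± 11.5 CPM per kb. Lpin2, at the other end, was at 2.12 ± 0.257 and 2.83 ± 0.173 CPM per kb. In each genotype 6 of the 9 neighbors in the order differed in the same direction in every mouse. Their exact two-sided sign-flip p was 0.0156 in fl/fl and 0.0312 in iADKO, the smallest that 7 and 6 mice allow. The Benjamini-Hochberg values over the 9 were 0.0234 and 0.0469. The order and its neighbors were taken from the same mice that were tested, so that these p-values do not test the order independently. Neighbors that did not pass the sign-flip test were Dgat1 and Gpam, Lpin1 and Gpat3 in both genotypes, Agpat1 and Gpat4 in fl/fl, and Gpat3 and Agpat1 in iADKO. With so few mice, not passing does not show that their levels were equal. With the length of the longest or of the canonical transcript in place of all exons, the order differed between genotypes. Gpat3, Gpat4 and Agpat1 then ranked 6, 7 and 8 in fl/fl and 8, 7 and 6 in iADKO. The other 7 genes kept their ranks.

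**Figure D3:**
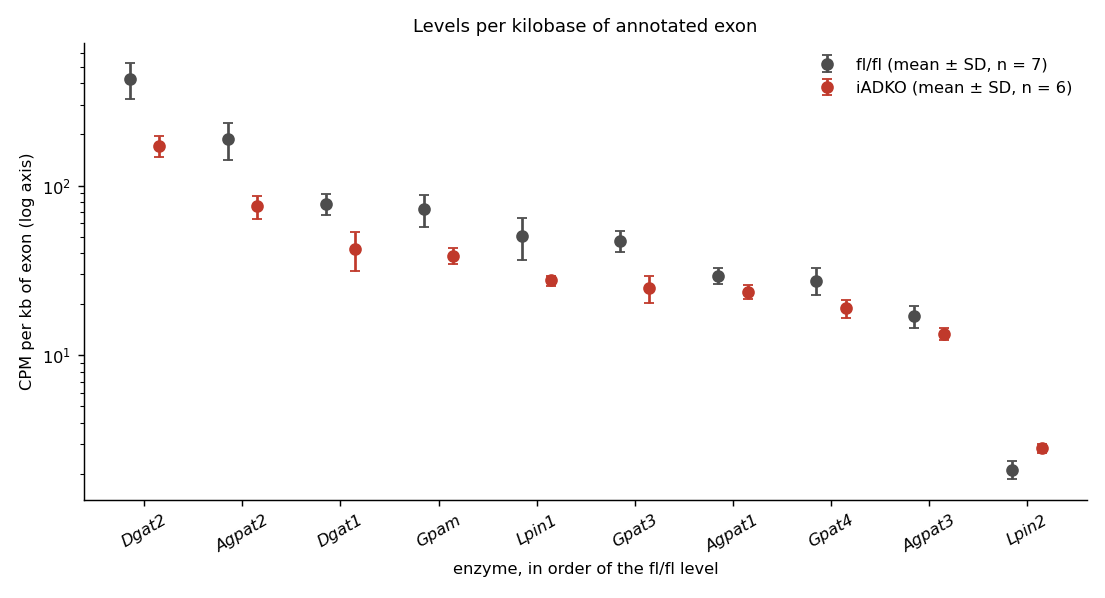
Level of each enzyme in CPM per kilobase of annotated exon on a log axis, mean ± SD of 7 fl/fl (grey) and 6 iADKO (red) mice, in the order of the fl/fl means. The order runs from Dgat2 (424 and 171) to Lpin2 (2.12 and 2.83), the only gene whose iADKO mean lies above its fl/fl mean.

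Enzymes of the same step were then compared within each mouse, as the log2 ratio of their CPM, which does not depend on how libraries are scaled. In the whole tissue, the balance moved away from Agpat2 within the AGPATs, away from Lpin1 within the lipins, and away from Gpat3 relative to Gpat4. The part of cell composition in these ratios was not tested. The genotypes were permuted over the mice in an exact test, two-sided, and 4 of 8 ratios passed after Benjamini-Hochberg adjustment over the 8. The smallest p that 7 against 6 mice allow is 0.000583. This test exchanges mice across the series of animal numbers. With the exchange held within series, an alternative added after the data were seen, 0 of the 8 passed. There the 4 ratios each had an exact permutation p of 0.0417, the smallest that 24 arrangements allow, and an adjusted value of 0.0833, with differences of 0.84 (Agpat1/Agpat2), -0.77 (Agpat2/Agpat3), -1.18 (Lpin1/Lpin2) and -0.42 (Gpat3/Gpat4). With mouse 765 joined, 3 of the 8 passed (adjusted exact permutation p 0.0444), and Gpat3/Gpat4 did not (-0.33, adjusted 0.107).

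The ratio of Agpat1 to Agpat2 was -2.96 ± 0.343 on the log2 scale in fl/fl and -1.998 ± 0.138 in iADKO (SD, n = 7 and 6). It was higher in every iADKO mouse than in any fl/fl mouse, by 0.96 ± 0.141 (SE, exact permutation p = 0.00117, adjusted 0.00311). The ratio of Agpat2 to Agpat3 was 1.83 ± 0.33 in fl/fl and 0.89 ± 0.148 in iADKO and was lower in every iADKO mouse, by -0.94 ± 0.139 (SE, exact permutation p = 0.00117, adjusted 0.00311). Per kilobase, Agpat2 made up 79.4% ± 3.88 of the 3 AGPATs in fl/fl and 66.9% ± 2.12 in iADKO. The ratio of Agpat1 to Agpat3 differed by 0.02 ± 0.0412 (SE, exact permutation p = 0.707, adjusted 0.777), and its values lay between -1.21 and -1.03 in fl/fl and between -1.22 and -1.02 in iADKO.

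The ratio of Lpin1 to Lpin2 was 4.42 ± 0.508 in fl/fl and 3.17 ± 0.143 in iADKO on the log2 scale, and no iADKO mouse reached the fl/fl range. The difference of -1.25 ± 0.201 was the largest of the 8 (SE, exact permutation p = 0.00117, adjusted 0.00311). Lpin2 made up 4.34% ± 1.60 of the 2 lipins per kilobase in fl/fl and 9.33% ± 0.805 in iADKO, so that Lpin1 remained the main lipin mRNA in both genotypes.

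Among the glycerol 3-phosphate acyltransferases, the ratio of Gpat3 to Gpat4 was -0.75 ± 0.216 in fl/fl and -1.15 ± 0.177 in iADKO. It was lower in iADKO by -0.40 ± 0.109 (SE, exact permutation p = 0.00816, adjusted 0.0163), with overlap between the groups. The ratio of Gpam to Gpat4 differed by -0.35 ± 0.147 (SE, exact permutation p = 0.0443), which did not pass after adjustment (0.0591). It passed without fl/fl 3 (0.0277) or without iADKO 2 (0.0219). The ratio of Gpam to Gpat3 differed by 0.05 ± 0.176 (SE, exact permutation p = 0.777, adjusted 0.777), and its difference changed sign without fl/fl 4 (-0.01) or without iADKO 2 (-0.04). For the DGATs, the ratio of Dgat1 to Dgat2 was -2.82 ± 0.316 in fl/fl and -2.45 ± 0.24 in iADKO. The difference of 0.37 ± 0.155 (SE, exact permutation p = 0.0344) did not pass after adjustment (0.0550), and passed without fl/fl 5 (0.0312), fl/fl 7 (0.0346) or iADKO 2 (0.0219). Dgat2 made up 84.0% ± 2.79 of the 2 DGATs per kilobase in fl/fl and 80.3% ± 2.59 in iADKO.

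**Figure D4:**
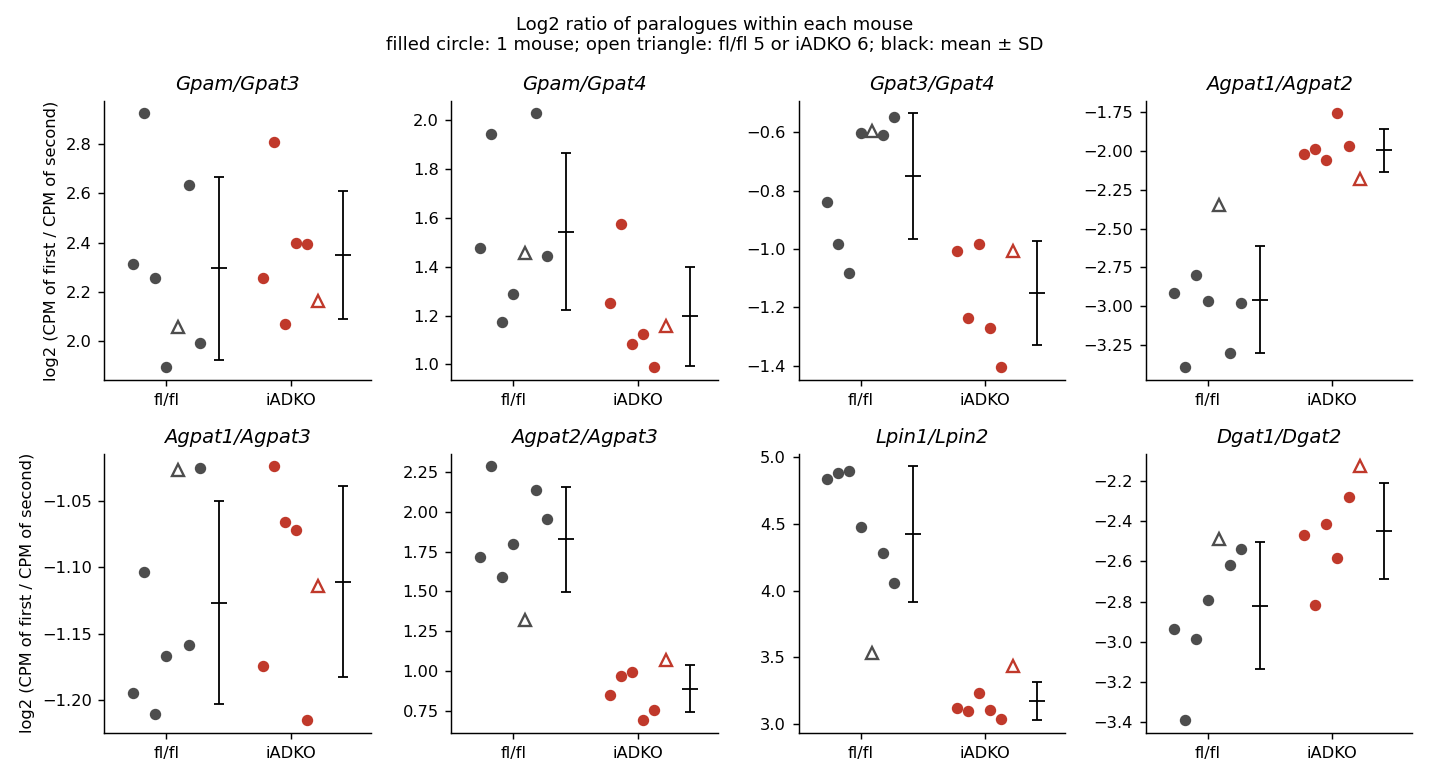
Log2 ratio of the CPM of enzymes of the same step within each mouse, for 7 fl/fl (grey) and 6 iADKO (red) mice, with the mean ± SD beside the points and open triangles for fl/fl 5 and iADKO 6; each panel has its own axis. Agpat1/Agpat2, Agpat2/Agpat3 and Lpin1/Lpin2 do not overlap between genotypes, and Gpam/Gpat3 and Agpat1/Agpat3 differ by 0.05 and 0.02.

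The enzymes were set beside markers of the cell types in the tissue. All 8 adipocyte markers fell, beside 16.3% of all tested genes called lower. Their median log2 fold change was -0.75, with a range of -1.11 to -0.61. The mean log2 CPM of the 8 was 10.88 ± 0.231 in fl/fl and 10.07 ± 0.245 in iADKO, a difference of -0.81. Relative to this mean within each mouse, the differences between genotypes were near 0 for Lpin1 (-0.02), Gpam (-0.07), Dgat1 (-0.10) and Gpat3 (-0.13). Agpat2 and Dgat2 had lower means relative to the adipocyte markers, each by -0.47, with overlap between the genotypes. The SD of these values was 0.307 and 0.249 in fl/fl and 0.128 and 0.167 in iADKO. Gpat4, Agpat3, Agpat1 and Lpin2 were higher relative to the markers, by 0.27, 0.47, 0.49 and 1.23. On this scale Agpat1 and Agpat3 were above every fl/fl mouse in every iADKO mouse, and the other enzymes overlapped. The marker mean itself differed by -0.81, so that a gene with no change would also rise on this scale. How many of all tested genes rose on it was not counted. These values are descriptive, since the markers fell with genotype themselves. The part of adipocyte number in the fall of the enzymes was not tested.

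The marker counts below stand beside 16.3% of all tested genes called lower and 14.1% called higher. Of the 8 macrophage markers, 6 rose, with a median log2 fold change of 0.69 and a summed level of 2127 to 5563 CPM in fl/fl and 3292 to 5703 CPM in iADKO. Cd163 and Lyz2 did not pass, at 0.21 and 0.72 (adjusted p 0.326 and 0.103). Of 5 endothelial markers 2 fell (Kdr and Cdh5), with summed levels of 687 to 953 and 698 to 813 CPM. None of 5 progenitor markers passed (2991 to 3701 and 2631 to 4149 CPM summed), none of 4 mesothelial markers (272 to 550 and 259 to 642 CPM), and none of 4 skeletal muscle markers (16.2 to 338 and 9.98 to 186 CPM). Of 4 markers each, 2 rose for B cells (19.7 to 53.1 and 33.9 to 72.6 CPM summed) and 2 for T cells (9.37 to 17.5 and 16.4 to 20.03 CPM). Of 4 epithelial markers 2 rose, Krt8 and Krt18, with summed levels of 11.1 to 38.6 CPM in fl/fl and 21.3 to 171 CPM in iADKO, the last value in iADKO 6. Myh4 of muscle was at 0 in 1 or more mice of each genotype and no other marker was at 0, and the part of cell composition in the enzyme values was not tested.

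**Figure D5:**
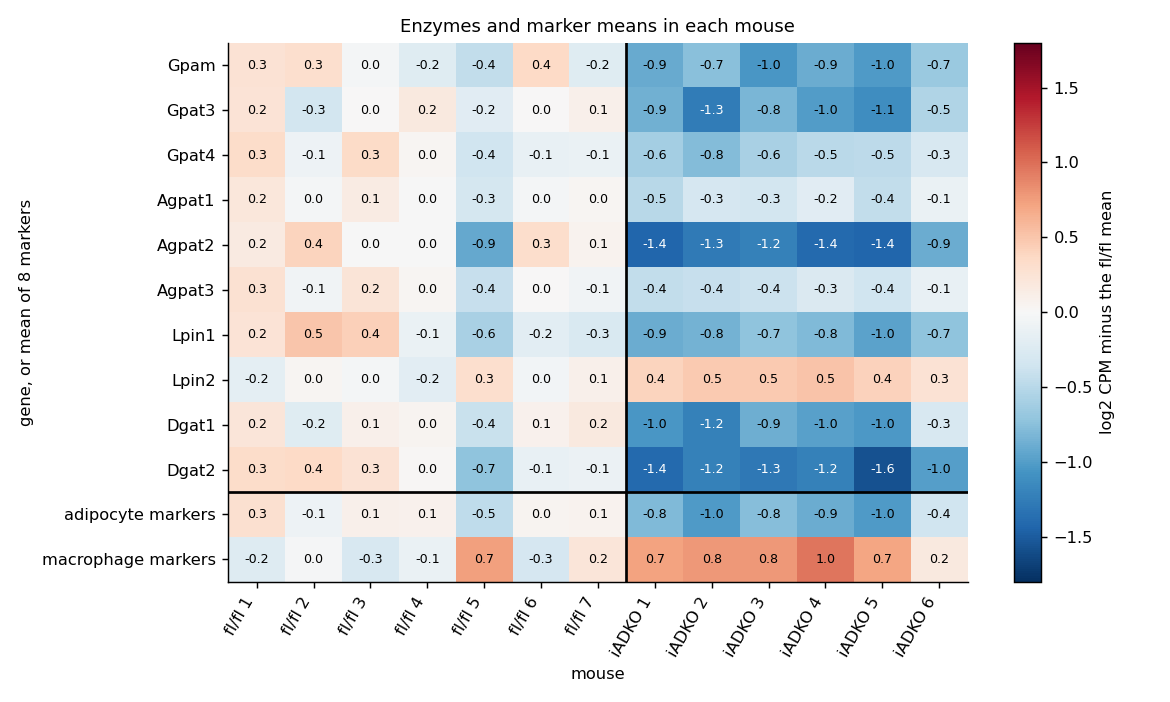
Log2 CPM of each enzyme in each mouse minus the fl/fl mean of that gene, and below the line the same for the mean of 8 adipocyte and 8 macrophage markers; blue is below and red above the fl/fl mean. The columns of fl/fl 5 and iADKO 6 are shifted toward the other genotype in most enzymes and in both marker means.

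The genes around the pathway were counted from a list of 40, of which 38 were tested. Of these, 12 fell, 3 rose (Gk, Dgkz and Tmem68) and 23 did not pass, and the median log2 fold change was 0.00. Of all tested genes, 16.3% were called lower and 14.1% higher. Of 7 tested acyltransferases and lipins outside the 10, 3 fell and 1 rose. Of 19 tested genes for reactions that branch from phosphatidic acid or diacylglycerol, 4 fell and 1 rose. Of 4 genes for seipin and the lipin phosphatase, 1 fell, and of 8 genes for the supply of glycerol 3-phosphate and acyl-CoA, 4 fell and 1 rose. Without fl/fl 5 and iADKO 6, 15 fell and 5 rose, in a comparison where 23.3% and 19.6% of all tested genes were called. With the animal series as a block, 0 fell and 1 rose, where 0.0836% and 0.239% of all were called.

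The monoacylglycerol acyltransferases, which make diacylglycerol without phosphatidic acid, fell from low levels. Mogat1 had a lowest, median and highest level of 13.7, 22.9 and 27.3 CPM in fl/fl and of 7.50, 10.2 and 17.5 CPM in iADKO, a log2 fold change of -1.01 ± 0.194 (SE, adjusted p 0.00232). Mogat2 had 2.58, 7.14 and 20.3 CPM in fl/fl and 1.95, 3.60 and 5.23 CPM in iADKO, with wide overlap. Its log2 fold change was -1.51 ± 0.457 (SE, adjusted p 0.0255), and the call was lost without fl/fl 1 and without iADKO 1, iADKO 2 or iADKO 3 (adjusted p up to 0.0576). Tmem68, a further enzyme described to make triglyceride, had 15.02, 15.8 and 18.0 CPM in fl/fl and 16.7, 18.7 and 18.9 CPM in iADKO. Its rise of 0.18 ± 0.0563 was small (SE, adjusted p 0.0262), and was not called without fl/fl 3, iADKO 2, iADKO 3 or iADKO 5 (adjusted p up to 0.0563).

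Chpt1, which turns diacylglycerol into phosphatidylcholine, had a lowest, median and highest level of 989, 1630 and 2044 CPM in fl/fl and of 608, 697 and 1064 CPM in iADKO. Its log2 fold change of -1.11 ± 0.164 (SE, adjusted p 0.000524) was between those of Gpat3 and Dgat2. Dgkz, a diacylglycerol kinase gene, rose from 75.5, 78.9 and 106 CPM to 87.6, 110 and 123 CPM, by 0.40 ± 0.0894 on the log2 scale (SE, adjusted p 0.00479). Bscl2, which encodes seipin, a protein of lipid droplet assembly whose loss causes congenital lipodystrophy, fell from 138, 198 and 214 CPM to 107, 123 and 155 CPM. The log2 fold change of Bscl2 was -0.61 ± 0.104 (SE, adjusted p 0.00107).

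The supply of glycerol 3-phosphate was divided. Gpd1, which makes glycerol 3-phosphate from a glycolytic intermediate, had a lowest, median and highest level of 1012, 1917 and 2505 CPM in fl/fl and of 902, 1070 and 1399 CPM in iADKO, a log2 fold change of -0.77 ± 0.178 (SE, adjusted p 0.00605). Pck1, of glyceroneogenesis, had 616, 1343 and 1930 CPM in fl/fl and 149, 582 and 1143 CPM in iADKO. Its log2 fold change was -1.19 ± 0.367 (SE, adjusted p 0.0271), and the call was lost without fl/fl 4, iADKO 1 or iADKO 4 (adjusted p up to 0.0553). Gk, which encodes glycerol kinase, rose from 10.3, 12.9 and 17.7 CPM to 16.4, 18.9 and 19.9 CPM, by 0.45 ± 0.127 on the log2 scale (SE, adjusted p 0.0162).

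For each enzyme the gene outside the 10 with the most similar pattern among mice was found, as the highest Pearson r of log2 CPM over the 13 mice after subtraction of the genotype means. For Gpam it was Gm45187 (r = 0.890), and for Gpat3 it was Fbxo45 (0.957). For Gpat4 it was Sort1 (0.963), for Agpat1 Slc25a39 (0.951), for Agpat2 Lactb2 (0.961) and for Agpat3 Txnrd2 (0.980). For Lpin1 it was Ehd3 (0.959), for Lpin2 Ddi2 (0.958), for Dgat1 Ivd (0.966) and for Dgat2 Slc25a35 (0.954). Each is the highest of at most 16743 values, from tested genes with a symbol in GENCODE vM39. A high r was thus chosen and no test applies. Spearman's rho of the same pairs was 0.780 to 0.973, and r without fl/fl 5 and iADKO 6 was 0.807 to 0.954. The genes of a pair were measured in the same libraries and share their depth and cell composition.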

How the data were processed

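Whole pmWAT of 13 female mice was profiled by bulk RNA-Seq. The authors deposited raw counts per gene, and log2 values that are rlog-transformed counts. Strand-specific mRNA libraries were aligned with STAR 2.7.11a to mm39, per the labels and the study's methods. The counting tool, its strand setting and the annotation are not given in the sources used here. Genotypes were taken from the labels. Separate mice were the replicates, and the labels used here did not tell batches apart.

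In R 4.3.3, genes were filtered with filterByExpr, scaled by TMM and compared with edgeR 4.0.16's robust quasi-likelihood test, with Benjamini-Hochberg adjustment over 16753 genes and a threshold of 0.05. Log2 CPM used a prior count of 2. Ratios and the order of levels were tested by exact permutation over mice. Of the identifiers, 33184 of 33618 matched GENCODE vM39, which gave symbols, positions and lengths. Alternatives were DESeq2 1.42.0, its size factors, other filters, limma 3.58.1 on the log2 values, blocks and left-out mice. Mice of a genotype differed by more than counting error, with a chi-square per degree of freedom of 8.90 to 98.7. The script was tested on simulated data. The named genes were all 10 enzymes, the 3 largest called decreases and increases of the wider list, and Gpd1, Bscl2, Mogat1 and Mogat2. The members and lists were chosen with earlier results of these data known.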

Additional observations from a re-analysis of the deposited data

Results flagged for a closer look

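Within their genotype, 3 values lay farther from the next mouse than a Dixon test at the 95% level allows, of 36 groups of values tested, and chance flags about 1 in 20 groups. Agpat2 was at 428 CPM in fl/fl 5, while the next lowest fl/fl mouse was at 806 CPM. Agpat2 was at 436 CPM in iADKO 6, while the next highest iADKO mouse was at 348 CPM. Dgat1 was at 288 CPM in iADKO 6, while the next highest iADKO mouse was at 192 CPM. All 3 values were shifted toward the other genotype.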

How the results depend on the processing

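The 9 lower and 1 higher calls among the enzymes were the same with DESeq2's size factors, the DESeq2 Wald test, no filter, a filter of 10 counts in every mouse, limma on the rlog values, and each mouse left out in turn. In the same order, the genes called lower and higher were 2913 and 2176 of 16753, and 3221 and 2458 of 33618. They were then 2382 and 1623 of 33618, 2643 and 2421 of 14939, and 2922 and 2237 of 16753. With each mouse left out, 2216 to 3285 genes were called lower and 1769 to 3319 higher, of 16638 to 16910. The replicate numbers shared by the genotypes did not pair the mice (correlations of deviations -0.03 to 0.22, and 3 of 6 fl/fl mice correlated best with their own number). A replicate block left 9 lower and 1 higher, beside 2454 lower and 2379 higher of 16667 tested genes. With it, 0 of 8 ratios passed an exact sign-flip test. Agpat1/Agpat2, Agpat2/Agpat3, Lpin1/Lpin2, Gpam/Gpat4 and Dgat1/Dgat2 had an adjusted p of 0.05 and Gpat3/Gpat4 one of 0.0833. The smallest sign-flip p that 6 pairs allow is 0.0312, which leaves little room to pass after adjustment over the 8. With the animal-number series as a block, 0 enzymes were lower and 0 higher, and of the wider list 0 were lower and 1 higher. Of all tested genes, 0.0836% were called lower and 0.239% higher there. With exchange within series only, 0 of 8 ratios passed. With mouse 765 joined to the nearest series, 6 of the wider list were lower and 1 higher, beside 7.17% and 4.68% of all tested genes. In that setting 3 ratios passed. With each mouse left out, 2 to 5 genes of the wider list rose. Without both fl/fl 5 and iADKO 6, 5 rose, beside 19.6% of all tested genes. The difference in the Gpam/Gpat3 ratio ranged from -0.039 to 0.16 and that of Agpat1/Agpat3 from -0.0016 to 0.037 over the left-out mice, with -0.01 for Gpam/Gpat3 without fl/fl 4. Mogat2, Pck1 and Tmem68 lost their calls without the filter on low counts (adjusted p 0.0695, 0.0740 and 0.142), Mogat2 also on the rlog values (0.0541), and Mogat2 and Tmem68 with the replicate block (0.108 and 0.0759). With mouse 765 joined, Gpd1, Mogat1 and Dgkz also lost their calls (edgeR adjusted p 0.0925, 0.0549 and 0.0618), as did Mogat2 and Tmem68 (0.104 and 0.189). With the animal-number series as a block, Gk alone of the named genes of the wider list was called (edgeR adjusted p 0.0441). The causes were not tested.

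Only 8 mice lie in an animal series that holds both genotypes, which limits the blocked fit. Lpin2, with the fewest counts of the 10, is the least deeply measured.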

Other observations

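In the wider list of 38 tested genes, 2 had every iADKO mouse below every fl/fl mouse, beside 3.93% of all tested genes, and they are named here after their values were seen. Acsl1, which activates long-chain fatty acids to acyl-CoA, had a lowest, median and highest level of 2446, 3346 and 3928 CPM in fl/fl and of 1309, 1574 and 2351 CPM in iADKO, with a log2 fold change of -0.96 (edgeR adjusted p 0.000628). Pcyt2, of phosphatidylethanolamine synthesis, had 49.4, 64.3 and 75.2 CPM in fl/fl and 37.4, 41.1 and 45.2 CPM in iADKO, with a log2 fold change of -0.62 (adjusted p 0.000274). Dgkd, a diacylglycerol kinase gene also chosen after its value was seen, fell by 0.52 on the log2 scale (adjusted p 0.00225), while Dgkz of the same family rose by 0.40.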
